A study of Mus musculus with 9 samples.

Results

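The genes described here are 39 mouse genes of the presynaptic terminal and of its synaptic vesicles, followed in neural stem cells (NSCs) cultured from the subependymal zone (SEZ) of adult mice during the first hours of differentiation. The members were a given list of symbols, matched to the Ensembl identifiers in the table of raw counts and the rule used no measured value. All 39 were among the 48526 identifiers in the table. Of these, 35 had enough counts to be tested, among 18858 tested genes, and 4 were too low: Sv2b (ENSMUSG00000053025), Slc17a6 (ENSMUSG00000030500), Slc17a7 (ENSMUSG00000070570) and Slc32a1 (ENSMUSG00000037771).

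There were 3 groups of 3 libraries, from undifferentiated NSCs (0 h) and from cells 1 h and 6 h after differentiation had been induced, and each group held 1 library for each of the letters B, C and D in the titles, called replicates 1, 2 and 3 here. The labels give the strain as C57BL/6 for all groups, and the methods of the study give wild-type mice of 2 to 4 months. Cells were grown as neurospheres with EGF and FGF. Differentiation was induced on an adhesive substrate by leaving out EGF while FGF stayed in the medium, so that no group was free of FGF. For cells fixed soon after induction, the methods describe a first seeding in medium with both factors. They do not say whether the sequenced cells were handled in this way. Time after the induction and withdrawal of EGF change together in this design and cannot be told apart. The labels say neither what libraries with the same letter share nor whether the replicates came from separate cultures or mice. The main tests are paired by letter, so that their p-values measure the spread of the changes between letters. That spread may be technical. In bulk RNA, fewer cells of a type and less RNA per cell cannot be told apart.

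A presynaptic terminal stores transmitter in small vesicles. Transporters fill the vesicles, scaffolds of the active zone hold them near the membrane, and Munc13 and RIM proteins prime them. The SNARE proteins, of which synaptobrevin sits on the vesicle and syntaxin and SNAP-25 on the plasma membrane, then fuse the membranes when synaptotagmin binds calcium, and clathrin adaptors and dynamin take the membrane back. These genes are best known from mature neurons, but several are also transcribed in glia and in dividing progenitors. Many neuronal genes carry a site called RE1, at which the repressor REST holds them low outside neurons.

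Total counts per library ran from 65871454 to 105592597, and mitochondrial genes took 2.86 to 3.58% of them. Summed over the 8 markers of NSCs, the level was between 6776 and 9702 CPM (counts per 1000000 counts, with totals scaled by TMM factors), and all 8 were tested. The 7 markers of mature neurons were all tested and summed to 799 to 1529.7 CPM, most of it from Map2, and none was at 0. Rbfox3, which encodes NeuN, had 2.75, 3.68 and 0.673 CPM at 0 h, 3.91, 4.502 and 0.445 CPM at 1 h, and 7.44, 7.47 and 1.53 CPM at 6 h. Microglial markers (5 genes) summed to 0.122 to 0.526 CPM. Libraries with the same letter deviated together: after the mean of each time point had been removed, their correlations across genes were between 0.733 and 0.800 in 9 pairs. The 18 other pairs had -0.462 to -0.314. Because that mean was removed, these negative values follow from the positive ones and are not separate evidence. The tests below are paired by that letter, in edgeR's quasi-likelihood test with the replicate as a block. A gene is called changed when its p, adjusted by Benjamini-Hochberg over the 18858 tested genes, is under 0.05, and a log2 fold change (log2FC) is given with its standard error.

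To show what regulatory sequence lies at these genes, the promoters of a few are printed here, 5′ to 3′ on the strand of the gene. RefSeq (GRCm38.p6) gave promoter records of 300 bases for 31 of the 39 members, and none was matched for Nrxn2, Rims2, Snap25, Syn3, Syt4, Syt5, Syt7 or Vamp2. Each printed promoter is the 250 bases before the start. Capitals mark the GC box GGGCGG, the cyclic AMP response element TGACGTCA and the left part of the consensus RE1, TTCAGCACC, each searched on both strands. The set holds 3 genes with some of the largest rises at 6 h (Syt1, Syn2, Snap91), Rims3, which fell, and Syn1, the best known RE1 gene among the members, which was not called.
Syt1 (chr10:109010976-109011225, minus strand): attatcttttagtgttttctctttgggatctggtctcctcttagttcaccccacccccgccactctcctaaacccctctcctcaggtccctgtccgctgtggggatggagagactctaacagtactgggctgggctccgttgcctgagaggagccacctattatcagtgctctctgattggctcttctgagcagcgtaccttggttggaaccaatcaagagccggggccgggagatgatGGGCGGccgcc
Syn2 (chr6:115134652-115134901, plus strand): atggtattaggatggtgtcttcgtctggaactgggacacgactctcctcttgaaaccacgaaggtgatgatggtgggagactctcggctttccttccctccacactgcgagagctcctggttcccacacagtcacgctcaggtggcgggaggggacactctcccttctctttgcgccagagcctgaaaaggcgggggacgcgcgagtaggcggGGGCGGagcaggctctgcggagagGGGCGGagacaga
Snap91 (chr9:86880709-86880958, minus strand): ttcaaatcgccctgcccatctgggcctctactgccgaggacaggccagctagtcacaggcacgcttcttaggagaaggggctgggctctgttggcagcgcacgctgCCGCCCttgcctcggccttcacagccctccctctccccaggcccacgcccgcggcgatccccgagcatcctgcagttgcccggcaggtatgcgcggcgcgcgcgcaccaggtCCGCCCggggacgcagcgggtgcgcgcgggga
Rims3 (chr4:120854549-120854798, plus strand): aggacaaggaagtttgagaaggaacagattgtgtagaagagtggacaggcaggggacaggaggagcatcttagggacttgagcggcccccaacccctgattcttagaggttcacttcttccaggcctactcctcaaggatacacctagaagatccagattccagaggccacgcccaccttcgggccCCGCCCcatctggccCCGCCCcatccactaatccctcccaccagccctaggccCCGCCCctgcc
Syn1 (chrX:20920919-20921168, minus strand): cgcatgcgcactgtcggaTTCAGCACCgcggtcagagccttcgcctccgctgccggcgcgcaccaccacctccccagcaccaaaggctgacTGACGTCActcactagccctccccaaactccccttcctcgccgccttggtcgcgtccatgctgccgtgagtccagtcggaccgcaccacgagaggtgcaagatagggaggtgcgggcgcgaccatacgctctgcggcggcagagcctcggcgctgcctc
Syn1 held both the left RE1 part and the response element and no GC box. The other 4 held 1 to 3 GC boxes each and neither of the other motifs, the gene that fell like the 3 that rose. In Unc13a, the left part and the right part of RE1 (GACAGCGCC) lay just after the start, as reverse complements 9 bases apart, and this 27-base stretch is shown with both in capitals.
Unc13a (chr8:71671727-71671753, minus strand): GGCGCTGTCcgcgcccccGGTGCTGAA
The left RE1 part was in 2 of the 41 records of the 31 members (4.88%, Syn1 and Unc13a), and in 0.371% of all 32851 promoter records. The right part was in 1 of the 41 (2.44%, Unc13a) and in 0.326% of all records. The response element was in 1 of the 41 (2.44%, Syn1) and in 1.79% of all records. The GC box was in 26 of the 41 records of the members (63.4%, 25 genes), and in 35.7% of all records. The median GC content of the 250 bases was 58.8% over the 41 member records and 52.4% over all records. A match is a run of letters and not a shown binding site.

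Levels were compared between genes per length, as CPM per kilobase of exon (CPM/kb), at 0 h (mean ± SD of the 3 replicates). Those of the 35 tested members ran from 0.0358 ± 0.0212 CPM/kb for Gad2 to 133 ± 65.3 CPM/kb for Rab3b. Rab3b, a vesicle GTPase, was thus the highest, and Syt11, a synaptotagmin that does not bind calcium, followed with 118 ± 38.6 CPM/kb. Their ranges overlapped, and both lay above all other members. The next were Vamp2 with 14.7 ± 1.06 CPM/kb, Cplx2 with 13.04 ± 2.703 CPM/kb and Nrxn2 with 10.7 ± 0.738 CPM/kb, and Cplx2 overlapped both Vamp2 and Nrxn2. The median of all tested genes was 3.17 CPM/kb, and 12 of the 39 members lay above it. Lower levels were 1.12 ± 0.275 CPM/kb for Syp, 0.267 ± 0.232 CPM/kb for Snap25 and 0.258 ± 0.0829 CPM/kb for Bsn. In 33 of the 38 pairs of neighbours in the order, the values of the 3 replicates overlapped.

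**Figure D1:**
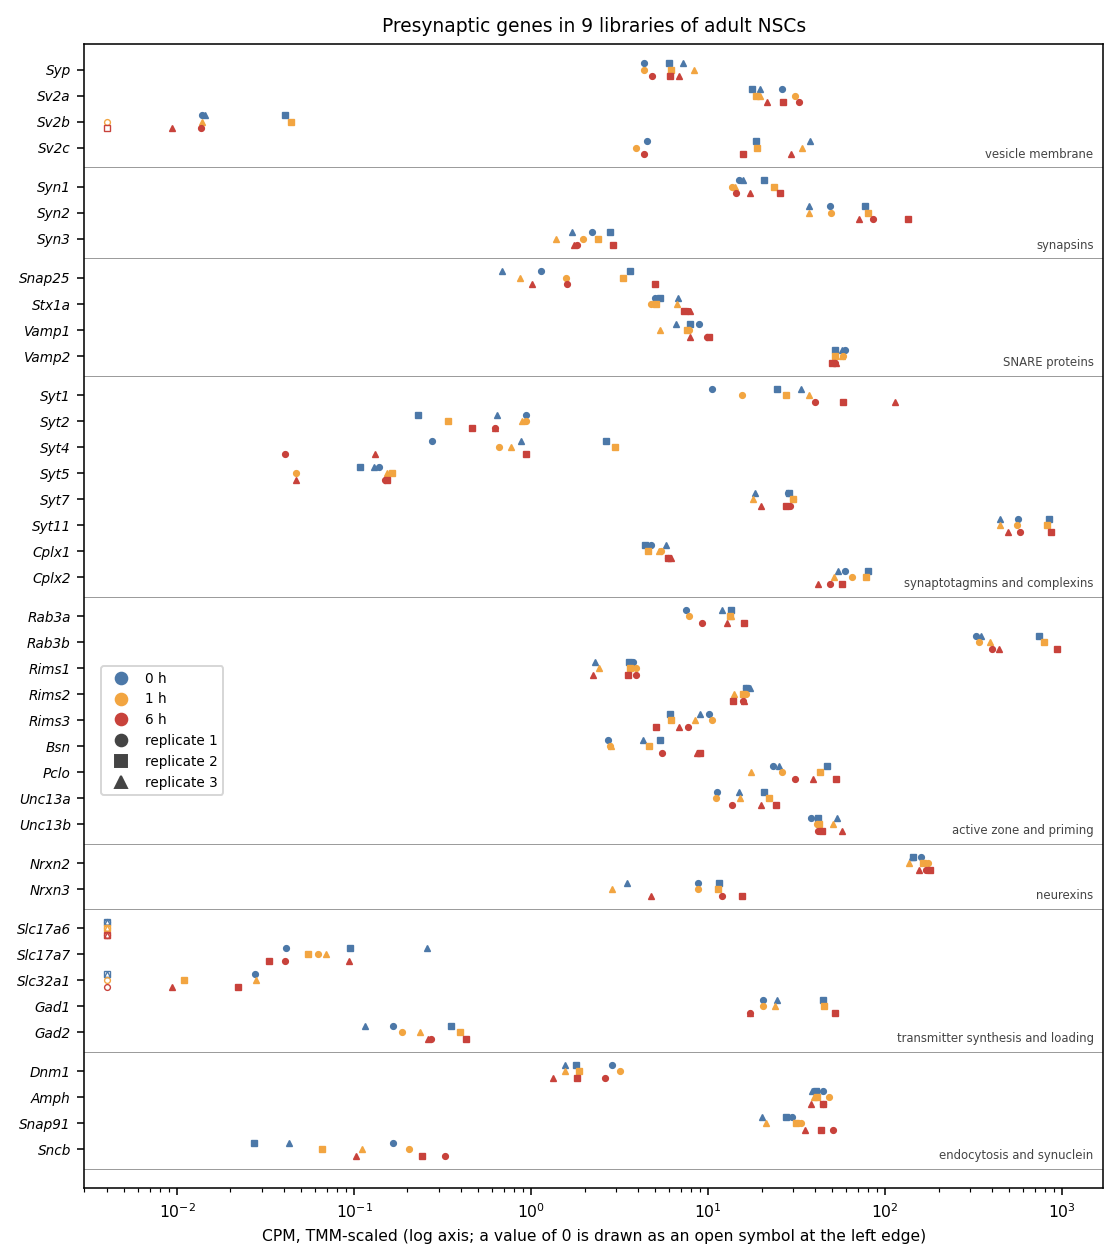
Level of each of the 39 genes in the 9 libraries, as TMM-scaled CPM on a log axis (not per length), with the genes grouped by role, colours for time and symbols for replicate. Rab3b and Syt11 lie to the right of the other genes, with Nrxn2 the nearest, and the 4 genes that were too low to test lie to the left of 0.3 CPM.

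Transcripts of most parts of the release machinery were counted before differentiation, and 3 transporters among the members and Sv2b were at or near 0. Slc17a6 (VGLUT2) had 0 counts in all 9 libraries, Slc17a7 (VGLUT1) 3 to 18 counts, Slc32a1 (the vesicular transporter of GABA) 0 to 2 and Sv2b, a vesicle glycoprotein, 0 to 4. At this depth a change in these 4 genes was not detectable.

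At 1 h none of the 35 tested members was called, while 3.51% of all tested genes were. Without the adjustment, 4 of the 35 had p under 0.05 in edgeR, as did 18.2% of all tested genes. They were Syt1, Rab3b and Snap91, each higher in 3 of 3 replicates, and Vamp1, lower in 3 of 3. DESeq2 with the block and edgeR without it also called 0 members, and 4.39% and 0.0424% of all tested genes. The nearest to a change were Syt1, with log2FC 0.27 ± 0.11, edgeR adjusted p = 0.202, and Snap91, with log2FC 0.15 ± 0.061, edgeR adjusted p = 0.21. Of the alternatives run, the fit without a filter on low counts called 1 member at 1 h, Syt1, and the others called 0. The median log2FC of the members was 0.03, against 0.00 over all tested genes. In 0 members did the values at 1 h and 0 h not overlap, against 8.24% of all tested genes.

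At 6 h 16 of the 35 tested members were higher than at 0 h and 4 were lower, and 15 were not called. Of all tested genes 34.9% were called, 17.4% higher and 17.5% lower. The members' median log2FC was 0.12, against -7.8e-05 over all tested genes, with 24 positive and 11 negative values, and it was 0.07 with trends in GC content and length removed. The result depended on the pairing. Without the replicate block edgeR called 0 members and 2.42% of all tested genes, and 4 members and 17.9% of all genes had an unadjusted p under 0.05. With the block, an unadjusted p was under 0.05 in 21 members and in 44% of all tested genes. DESeq2 with the block called 13 higher and 4 lower (15.9% and 16.5% of all tested genes), all 17 also called by edgeR, and left out Cplx1, Rab3a and Pclo (DESeq2 adjusted p = 0.0549, 0.0587 and 0.140).

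**Figure D2:**
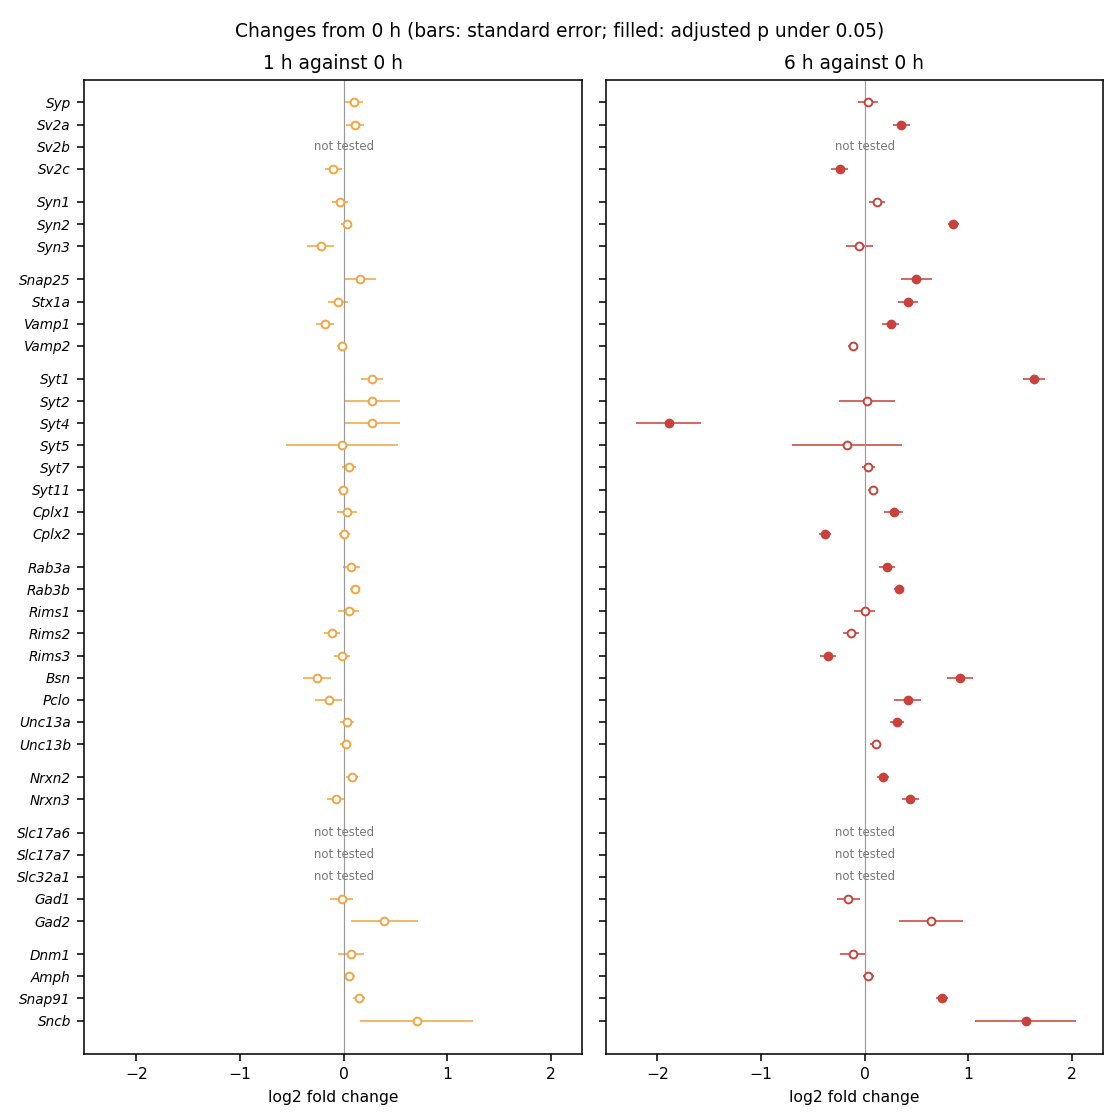
Log2 fold changes of the members at 1 h and at 6 h against 0 h, with standard errors; filled points passed an adjusted p of 0.05. No point is filled at 1 h, and 20 are at 6 h, with Syt1 and Sncb farthest to the right and Syt4 farthest to the left.

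The replicates of one time point differed from one another. Over the 35 tested members, the ratio of the highest to the lowest replicate at 0 h had a median of 1.67, against 1.35 over all tested genes. For 32 of the 35 this ratio was larger than the paired change at 6 h, which is an unlike measure. How often that holds over all tested genes was not computed. In 12 members the ratio was over 2, as it was in 20.4% of all tested genes. Sv2c was an example, with 4.48, 18.6 and 37.7 CPM at 0 h, 3.91, 18.8 and 33.7 CPM at 1 h, and 4.34, 15.6 and 29.4 CPM at 6 h. Replicate 1 was the lowest at every time and replicate 3 the highest, while the step to 6 h was small in each.

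**Figure D3:**
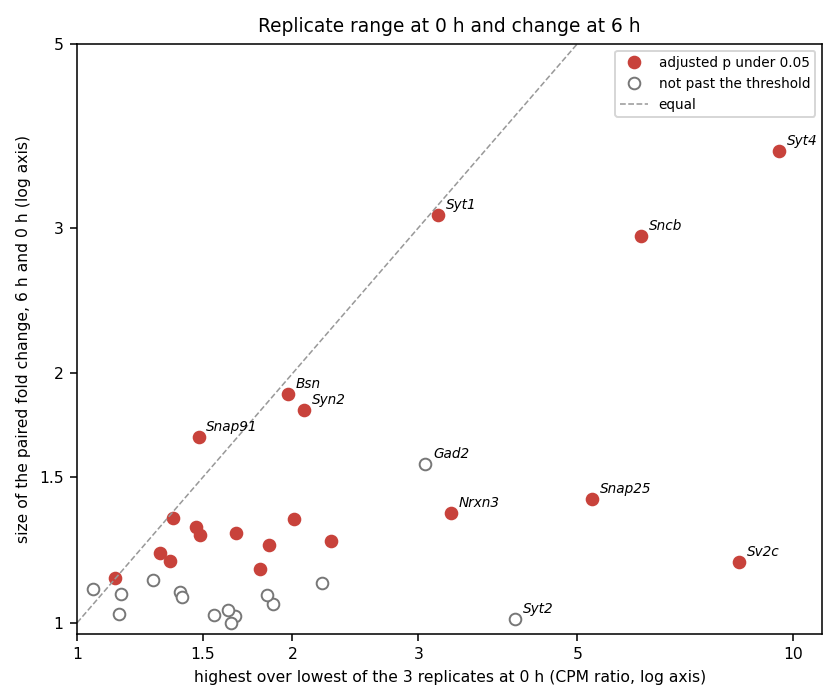
For each tested member, the ratio of the highest to the lowest of the 3 replicates at 0 h (x, log axis) and the size of the paired fold change between 6 h and 0 h (y, log axis), with the line of equal values dashed. Most members lie under the line, Sv2c and Syt4 far to the right, and Snap91 is the clearest member above it.

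Among the proteins of the vesicle membrane, Sv2a, the glycoprotein that binds the antiepileptic drug levetiracetam, had 26.1, 17.6 and 19.6 CPM at 0 h, 31.1, 18.7 and 19.5 CPM at 1 h, and 32.7, 26.6 and 21.6 CPM at 6 h. It rose at 6 h, in each replicate, although the groups overlapped (log2FC 0.35 ± 0.086, edgeR adjusted p = 0.00621). The call was lost without the 0 h library of replicate 2 (log2FC 0.30, edgeR adjusted p = 0.0519). Sv2c fell (log2FC -0.24 ± 0.079, edgeR adjusted p = 0.0297), in 3 of 3 replicates. That call was lost in 5 of the 9 fits that each left out 1 library, namely all 3 libraries at 0 h and replicates 2 and 3 at 6 h (adjusted p between 0.0553 and 0.207), and with trends in GC content and length removed (log2FC -0.22, edgeR adjusted p = 0.0572). Syp, the synaptophysin gene and the usual marker of the vesicle, had 4.31, 6.03 and 7.16 CPM at 0 h, 4.34, 6.18 and 8.33 CPM at 1 h, and 4.79, 6.11 and 6.84 CPM at 6 h. Its replicates kept their order and differed more than the times did (log2FC 0.03 ± 0.094, edgeR adjusted p = 0.843).

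The synapsins tether vesicles to one another and to actin. Syn2 was the member with the smallest adjusted p, and its levels were 48.5, 76.8 and 37.02 CPM at 0 h, 49.4, 80.2 and 36.96 CPM at 1 h, and 85.3, 134 and 71.2 CPM at 6 h. At 1 h the 3 replicates were at 1.02, 1.04 and 0.998 of their levels at 0 h, and at 6 h at 1.76, 1.74 and 1.92 (log2FC 0.85 ± 0.052, edgeR adjusted p = 1.78e-07). Replicate 2 at 0 h lay above replicate 3 at 6 h, so that the groups overlapped. Syn1 had 14.9, 20.8 and 15.7 CPM at 0 h, 13.6, 23.5 and 14.1 CPM at 1 h, and 14.3, 25.3 and 17.2 CPM at 6 h, higher at 6 h in 2 of 3 replicates (log2FC 0.12 ± 0.078, edgeR adjusted p = 0.25), and Syn3, the lowest of the 3 synapsins per length, was not called either (log2FC -0.05 ± 0.13, edgeR adjusted p = 0.79). The exons of Syn2 share 90 bases with Timp4 on the other strand, which also rose (log2FC 0.44), those of Syn1 9 bases with Araf, and those of Syn3 1733 bases with Timp3. The strand setting of the counting is not given in the sources used here, so that reads from these shared bases cannot be told apart.

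Of the 4 SNARE genes, 3 were called higher at 6 h against 0 h and none lower, beside 17.4% and 17.5% of all tested genes. Snap25 had 1.13, 3.61 and 0.687 CPM at 0 h, 1.56, 3.297 and 0.862 CPM at 1 h, and 1.602, 5.03 and 1.01 CPM at 6 h, so that replicate 2 was above the others at every time. At 6 h the 3 replicates were at 1.41, 1.39 and 1.47 times their levels at 0 h (log2FC 0.50 ± 0.15, edgeR adjusted p = 0.019). Stx1a, which encodes syntaxin 1A, had 4.98, 5.37 and 6.77 CPM at 0 h, 4.77, 5.05 and 6.702 CPM at 1 h, and 7.64, 7.28 and 7.84 CPM at 6 h. All 3 values at 6 h lay above all 3 at 0 h (log2FC 0.42 ± 0.097, edgeR adjusted p = 0.00457). Vamp1, a synaptobrevin, had 8.903, 7.89 and 6.602 CPM at 0 h, 7.78, 7.602 and 5.35 CPM at 1 h, and 9.79, 10.1 and 7.88 CPM at 6 h. It was lower at 1 h in every replicate without being called, and rose at 6 h (log2FC 0.25 ± 0.080, edgeR adjusted p = 0.0289). Vamp2, the main synaptobrevin of forebrain terminals and the highest SNARE gene here, had 59.5, 51.7 and 57.1 CPM at 0 h, 57.9, 51.9 and 56.8 CPM at 1 h, and 52.2, 49.9 and 52.9 CPM at 6 h. It was lower at 6 h in 3 of 3 replicates but not called (log2FC -0.12 ± 0.049, edgeR adjusted p = 0.0842), and was called lower with trends in GC content and length removed (log2FC -0.20, edgeR adjusted p = 0.00273) and without the 1 h library of replicate 3 (log2FC -0.11, edgeR adjusted p = 0.0377). The calls of Snap25 were lost without the 0 h libraries of replicates 1 or 3 or the 6 h library of replicate 2 (adjusted p between 0.0682 and 0.146). That of Vamp1 was lost without any of the 3 libraries at 0 h or replicates 2 or 3 at 6 h (between 0.0596 and 0.175).

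Of the 6 synaptotagmins, calcium sensors and their relatives, 1 rose and 1 fell at 6 h, beside 17.4% and 17.5% of all tested genes. Syt1, the sensor of fast release, had 10.5, 24.4 and 33.5 CPM at 0 h, 15.4, 27.5 and 36.96 CPM at 1 h, and 39.8, 57.6 and 114 CPM at 6 h. It was higher at 6 h than at 0 h by 3.80, 2.36 and 3.39 times in replicates 1 to 3, and the lowest value at 6 h lay above the highest at 0 h (log2FC 1.63 ± 0.11, edgeR adjusted p = 2.95e-07). This was the largest rise of a member on the log2 scale. Syt4, a synaptotagmin found on dense-core vesicles, had 0.276, 2.65 and 0.874 CPM at 0 h, 0.656, 2.98 and 0.765 CPM at 1 h, and 0.0407, 0.935 and 0.131 CPM at 6 h. It fell in each replicate, to 0.147, 0.353 and 0.150 of its level at 0 h (log2FC -1.89 ± 0.31, edgeR adjusted p = 0.000458), and replicate 2 was the highest at each time. With as few as 3 counts in a library, Syt4 is measured less precisely than Syt1. Syt11 had 559, 835 and 445 CPM at 0 h, 557, 820.5 and 445 CPM at 1 h, and 577, 857 and 491 CPM at 6 h. It was higher at 6 h by 1.03, 1.03 and 1.10 times in replicates 1 to 3 and was not called (log2FC 0.08 ± 0.047, edgeR adjusted p = 0.241). Syt2, Syt5 and Syt7 were not called, with log2FC between -0.17 and 0.03 at 6 h.

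Complexins bind the assembled SNARE complex. Cplx2 had 59.4, 79.3 and 54.1 CPM at 0 h, 64.7, 77.3 and 51.6 CPM at 1 h, and 48.8, 56.95 and 41.5 CPM at 6 h. It was lower at 6 h in every replicate (log2FC -0.38 ± 0.054, edgeR adjusted p = 0.000155), and its call was kept whichever library was left out. Cplx1, several times lower, had 4.74, 4.39 and 5.74 CPM at 0 h, 5.39, 4.57 and 5.26 CPM at 1 h, and 5.904, 5.92 and 6.14 CPM at 6 h. Its 6 h values lay just above those at 0 h (log2FC 0.28 ± 0.095, edgeR adjusted p = 0.0372). The call of Cplx1 was lost without replicate 1 or 2 at 0 h or at 6 h (adjusted p between 0.0760 and 0.169) and with trends in GC content and length removed (log2FC 0.16, edgeR adjusted p = 0.195).

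**Figure D4:**
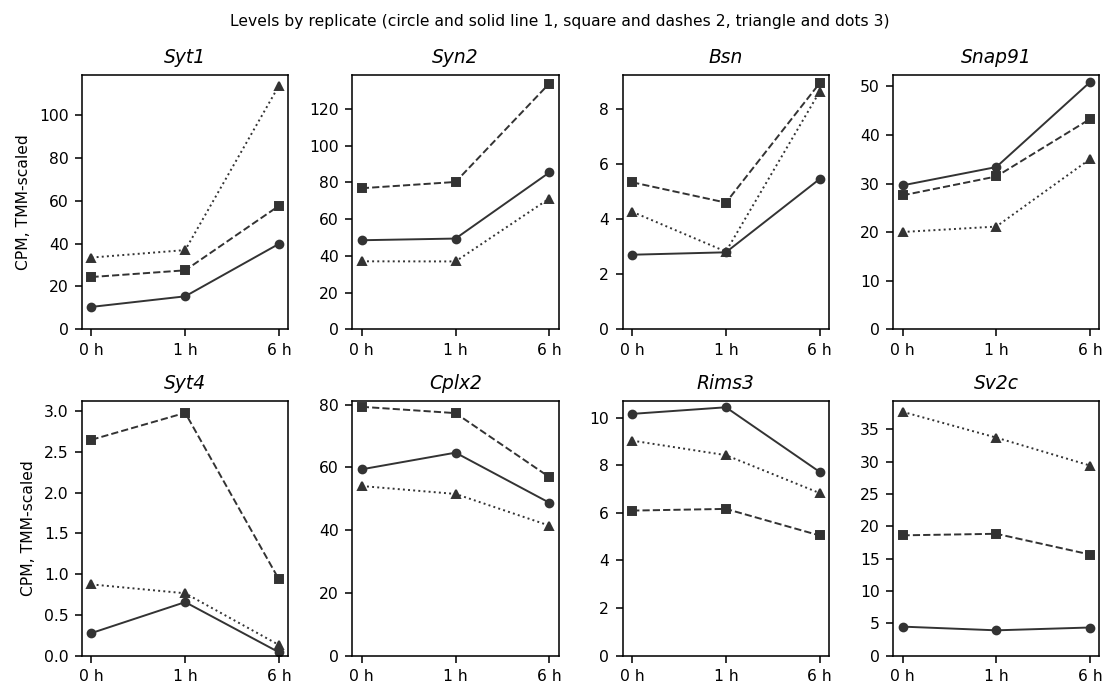
CPM of 8 members by time, with each replicate as a line; times are drawn at equal steps. In the upper row all 3 lines rise between 1 h and 6 h, and in the lower row Syt4, Cplx2 and Rims3 fall between 1 h and 6 h in all 3 replicates, while replicate 1 of Sv2c is nearly level.

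At the active zone, Bsn (bassoon), one of the 2 giant scaffolds, had 2.71, 5.34 and 4.27 CPM at 0 h, 2.797, 4.600 and 2.82 CPM at 1 h, and 5.46, 8.93 and 8.63 CPM at 6 h. At 1 h it was lower than at 0 h in replicates 2 and 3, and at 6 h all values lay above those at 0 h (log2FC 0.92 ± 0.12, edgeR adjusted p = 9.92e-05). Pclo (piccolo), the other scaffold, had 23.3, 46.7 and 24.98 CPM at 0 h, 25.9, 42.9 and 17.4 CPM at 1 h, and 30.9, 52.7 and 38.9 CPM at 6 h, and also rose at 6 h (log2FC 0.42 ± 0.13, edgeR adjusted p = 0.0247). In both genes replicate 3 was lowest relative to 0 h at 1 h, by factors of 0.661 and 0.698. The call of Pclo was lost without any of the 0 h libraries or replicate 3 at 6 h (adjusted p between 0.0536 and 0.172).

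Among the priming factors, Unc13a (Munc13-1) had 11.2, 20.7 and 14.97 CPM at 0 h, 11.1, 22.1 and 15.03 CPM at 1 h, and 13.7, 24.2 and 19.9 CPM at 6 h, and rose in each replicate (log2FC 0.31 ± 0.068, edgeR adjusted p = 0.00316). Unc13b was 1.06 to 1.09 times higher in the replicates and not called (log2FC 0.10 ± 0.052, edgeR adjusted p = 0.143), and became called with trends in GC content and length removed (log2FC 0.17, edgeR adjusted p = 0.0229) or without the 1 h library of replicate 3 (log2FC 0.11, edgeR adjusted p = 0.0476). Rims3, a short RIM protein, had 10.2, 6.095 and 9.04 CPM at 0 h, 10.4, 6.17 and 8.43 CPM at 1 h, and 7.72, 5.05 and 6.83 CPM at 6 h. It fell by a similar step in every replicate (log2FC -0.36 ± 0.077, edgeR adjusted p = 0.003). Rims2 had all its 6 h values below those at 0 h without passing the test (log2FC -0.14 ± 0.077, edgeR adjusted p = 0.196), and Rims1 was not called (log2FC -0.00 ± 0.10, edgeR adjusted p = 0.994). The exons of Unc13a share 495 bases with Colgalt1 on the other strand, which was not called (log2FC -0.04).

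Rab3b had 324, 734 and 348 CPM at 0 h, 338, 788 and 389 CPM at 1 h, and 402, 934 and 437 CPM at 6 h. Every replicate rose by nearly the same factor, 1.24, 1.27 and 1.26 (log2FC 0.33 ± 0.046, edgeR adjusted p = 0.000145), while at 0 h the highest replicate was 2.27 times the lowest. Rab3a, the main Rab3 of neurons, had 7.45, 13.4 and 11.97 CPM at 0 h, 7.81, 13.3 and 13.5 CPM at 1 h, and 9.27, 15.9 and 12.8 CPM at 6 h, and it had the highest adjusted p of the 20 calls (log2FC 0.21 ± 0.078, edgeR adjusted p = 0.0484). Leaving out the 1 h or the 6 h library of replicate 3 kept the call, and leaving out any of the other 7 lost it, with adjusted p between 0.0508 and 0.189. It was also lost with trends in GC content and length removed (log2FC 0.12, edgeR adjusted p = 0.211). Its exons share 29 bases with Mpv17l2 on the other strand, which rose (log2FC 0.54).

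The neurexins are adhesion molecules of the terminal that bind partners across the cleft. Nrxn3 had 8.81, 11.6 and 3.47 CPM at 0 h, 8.77, 11.4 and 2.86 CPM at 1 h, and 11.9, 15.4 and 4.76 CPM at 6 h. Replicate 3 was low at all times, yet the 3 replicates rose by 1.36, 1.34 and 1.37 times (log2FC 0.44 ± 0.081, edgeR adjusted p = 0.00102). Nrxn2, many times higher, had 159.9, 143 and 141 CPM at 0 h, 174, 164 and 136 CPM at 1 h, and 169.7, 178 and 156 CPM at 6 h, and rose by little (log2FC 0.18 ± 0.058, edgeR adjusted p = 0.0297). That call was lost without replicates 1 or 2 at 0 h or replicates 2 or 3 at 6 h (adjusted p between 0.0727 and 0.220) and with trends in GC content and length removed (log2FC 0.07, edgeR adjusted p = 0.162). The exons of Nrxn2 share 682 bases with Slc22a12 on the other strand, which had at most 24 counts.

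For transmitters, Gad1, which makes most of the GABA in neurons, had 20.3, 44.7 and 24.6 CPM at 0 h, 20.3, 44.8 and 23.7 CPM at 1 h, and 17.3, 51.8 and 17.1 CPM at 6 h, lower in replicates 1 and 3 and higher in replicate 2 at 6 h (log2FC -0.16 ± 0.11, edgeR adjusted p = 0.287). Gad2 was higher in 3 of 3 replicates from only 8 to 39 counts (log2FC 0.64 ± 0.31, edgeR adjusted p = 0.129). Neither was called, although Gad1 was called lower without the 6 h library of replicate 2 (log2FC -0.36, edgeR adjusted p = 0.00559), and the 3 transporters of glutamate and GABA could not be tested.

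In the recovery of membrane, Snap91, the clathrin assembly protein AP180, had 29.6, 27.6 and 20.04 CPM at 0 h, 33.4, 31.5 and 21.1 CPM at 1 h, and 50.9, 43.3 and 35.03 CPM at 6 h. All values at 6 h lay above those at 0 h, and the factors were alike, 1.72, 1.57 and 1.75 (log2FC 0.75 ± 0.060, edgeR adjusted p = 1.48e-06). Dnm1 (log2FC -0.11 ± 0.12, edgeR adjusted p = 0.531) and Amph (log2FC 0.04 ± 0.056, edgeR adjusted p = 0.666), which encode dynamin 1 and its partner amphiphysin, were not called. Sncb, which encodes beta-synuclein, had 0.166, 0.02703 and 0.04296 CPM at 0 h, 0.203, 0.0657 and 0.111 CPM at 1 h, and 0.326, 0.242 and 0.103 CPM at 6 h. It was higher in 3 of 3 replicates (log2FC 1.55 ± 0.49, edgeR adjusted p = 0.0247), but from 2 to 24 counts a library, and the call was lost without replicates 2 or 3 at 0 h or replicate 2 at 6 h (adjusted p between 0.0751 and 0.133).

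In 6 of the 35 tested members, Stx1a, Syt1, Cplx1, Rims2, Bsn and Snap91, the values at 6 h did not overlap those at 0 h, against 25% of all tested genes. In 19 of the 35 every replicate was higher at 6 h, as in 31.5% of all tested genes, and in 6 every replicate was lower, as in 31.7%. The call was kept in all 9 fits that left out 1 library for 8 of the 16 that rose (Syn2, Stx1a, Syt1, Rab3b, Bsn, Unc13a, Nrxn3 and Snap91) and for 3 of the 4 that fell (Syt4, Cplx2 and Rims3). The share of calls kept in this way over all tested genes was not computed.

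Between 1 h and 6 h, 11 members rose and 3 fell, and 35.6% of all tested genes were called, 18% higher and 17.5% lower. In 6 members the values did not overlap, as in 22.2% of all tested genes. Those that rose were Sv2a, Syn2, Stx1a, Vamp1, Syt1, Rab3b, Bsn, Pclo, Unc13a, Nrxn3 and Snap91, and those that fell were Syt4, Cplx2 and Rims3. Both comparisons use the 6 h libraries, so that they are not independent. The log2FC at 6 h against 1 h and against 0 h were 1.36 and 1.63 for Syt1, 1.18 and 0.92 for Bsn, 0.82 and 0.85 for Syn2, and -2.17 and -1.89 for Syt4. The call of Sv2a against 1 h was lost without replicates 1 or 2 at 6 h or replicates 2 or 3 at 1 h (adjusted p between 0.0523 and 0.256). With trends in GC content and length removed, the calls of Sv2a and Unc13a against 1 h were lost (log2FC 0.15, edgeR adjusted p = 0.16 and log2FC 0.16, edgeR adjusted p = 0.0637). Without the replicate block 0 members and 2.14% of all tested genes were called, and 4 members and 17.7% of all genes had an unadjusted p under 0.05. With the block 16 members and 44.7% of all genes had one. DESeq2 with the block called 11 higher and 3 lower, and 15.8% and 17.1% of all tested genes.

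A further 66 genes that are not members, listed here as presynaptic, were read in the same fit, and 60 could be tested. The list also holds genes that are not confined to the terminal, such as Unc13d, a Munc13 of secretory cells. At 1 h 0 were called, beside 3.51% of all tested genes, and DESeq2 with the block called 0. In edgeR 13 had an unadjusted p under 0.05, beside 18.2% of all tested genes. At 6 h against 0 h 20 rose and 9 fell, beside 34.9% of all tested genes called, and the median log2FC was 0.07. Without the block 1 was called, beside 2.42% of all tested genes. At 6 h against 1 h 21 rose and 7 fell, beside 35.6% of all tested genes called, 18% higher and 17.5% lower. Some of the larger changes at 6 h against 0 h follow. Rph3a, which encodes the Rab3 effector rabphilin, rose (log2FC 1.44 ± 0.081, edgeR adjusted p = 8.16e-08). Syt13 fell (log2FC -1.36 ± 0.19, edgeR adjusted p = 0.000112). Unc13d rose (log2FC 0.79 ± 0.21, edgeR adjusted p = 0.0107), as did Ppfia3, a liprin of the active zone (log2FC 0.70 ± 0.071, edgeR adjusted p = 1.15e-05). Rph3a had 9.097, 9.81 and 0.687 CPM at 0 h, 8.56, 8.95 and 0.751 CPM at 1 h, and 23.5, 27.7 and 1.94 CPM at 6 h, so that replicate 3 was far below the other replicates at each time.

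**Figure D5:**
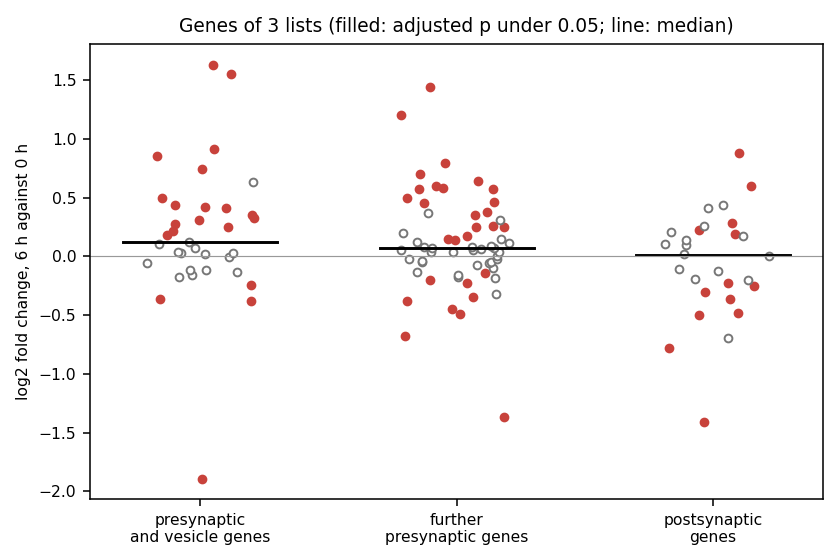
Log2 fold changes at 6 h against 0 h of the tested genes of 3 lists: the 35 tested members, 60 further presynaptic genes and 28 postsynaptic genes. Filled points passed an adjusted p of 0.05, lines are medians, and each list holds genes on both sides of 0.

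REST and 10 partners of its complex were all tested. Of all tested genes, 3.51% were called at 1 h and 34.9% at 6 h, both against 0 h. Rest had 68.3, 59.7 and 63.7 CPM at 0 h, 59.1, 53.98 and 52.3 CPM at 1 h, and 53.9, 46.2 and 53.2 CPM at 6 h. It was lower at 6 h than at 0 h in every replicate (log2FC -0.32 ± 0.054, edgeR adjusted p = 0.000548), with a step of the same sign at 1 h that missed the threshold in edgeR (log2FC -0.21 ± 0.054, edgeR adjusted p = 0.0519). At 6 h Hdac1 (log2FC -0.27 ± 0.046, edgeR adjusted p = 0.000682), Hdac2 (log2FC -0.22 ± 0.049, edgeR adjusted p = 0.004) and Sin3a (log2FC -0.16 ± 0.053, edgeR adjusted p = 0.0327) also fell, and the corepressor gene Rcor2 rose (log2FC 0.37 ± 0.053, edgeR adjusted p = 0.000185). At 1 h the 2 genes called were Rcor2 (log2FC -0.29 ± 0.054, edgeR adjusted p = 0.0103) and Rcor1 (log2FC -0.22 ± 0.053, edgeR adjusted p = 0.0392), both lower. DESeq2 with the block called 4 lower at 1 h, these 2, Rest and Rcor3 (DESeq2 adjusted p = 0.0416 for Rest and 0.0380 for Rcor3). It called 4.39% of all tested genes, higher or lower. Without the block 0 of the 11 were called at either time. Whether these changes bear on the members was not tested.

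Cell type markers were also called at 6 h against 0 h, beside 34.9% of all tested genes, 17.4% higher and 17.5% lower. Of the 8 markers of NSCs, 4 rose and 2 fell. The NSC markers summed to 7635 to 9237 CPM at 0 h and 6776 to 8574 CPM at 6 h, lower in each replicate. Such a sum gives most weight to the most abundant markers, and 5 of the 8 log2FC were positive and 3 negative (median 0.13). Of the 7 markers of mature neurons, 2 rose at 6 h, Rbfox3 (log2FC 1.23 ± 0.16, edgeR adjusted p = 6.77e-05) and Thy1 (log2FC 0.83 ± 0.22, edgeR adjusted p = 0.011), and 3 fell, Nefl (log2FC -1.29 ± 0.21, edgeR adjusted p = 0.000512), Camk2a (log2FC -0.78 ± 0.083, edgeR adjusted p = 1.66e-05) and Nefm (log2FC -0.63 ± 0.094, edgeR adjusted p = 0.00023). Their summed level was 932 to 1487 CPM at 0 h and 886 to 1529.7 CPM at 6 h. Of the 9 markers of neuroblasts, all tested, 2 rose, Tubb3 and Elavl3, and 2 fell, Dlx1 and Nrep, with sums of 249.5 to 318 CPM at 0 h and 248 to 334 CPM at 6 h. The oligodendrocyte lineage had 5 of 8 tested markers higher (4 in DESeq2 with the block) and 0 lower, and a sum of 1696 to 2294 CPM at 0 h and 2169.6 to 2518 CPM at 6 h. Astrocyte markers summed to 636 to 797 CPM at 0 h and 802 to 926 CPM at 6 h, with 1 of 5 higher and 1 lower. Ependymal and endothelial markers summed to at most 93.3 and 18.9 CPM, with 2 of 3 tested lower and 0 higher in each. Of the 5 microglial markers, the 1 that could be tested, Csf1r, fell in edgeR, and this call was lost in DESeq2 with the block (DESeq2 adjusted p = 0.141) and without the block. No marker was at 0 in all 9 libraries, and Cldn5 of endothelial cells was at 0 in 8 of 9. The part of these markers in the changes of the presynaptic genes was not tested.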

How the data were processed

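RNA-seq counts of 9 libraries were used, 3 per time point. The authors deposited raw counts of reads per Ensembl gene (mm10, GRCm38). The processing notes of the submitters name STAR 2.5.3a, FastQC and DESeq2 1.22.1, and the strand setting and any covariate are not given in the sources used here. Each count column matched 1 library, with 0 columns left over. Reads of spliced and unspliced RNA are not separated in such counts. Symbols (48144 of 48526 identifiers), positions and exon lengths came from GENCODE M21, and promoters from RefSeq (GRCm38.p6).

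The tests were run with edgeR 4.0.16 (and limma 3.58.1) under R 4.3.3, with DESeq2 1.42.0 as an alternative. Matplotlib 3.10.9 under Python 3.11.15 drew the figures. Genes were kept with filterByExpr (minimum count 10, minimum total 15), libraries were scaled with TMM (factors 0.972 to 1.02), and all 9 were fitted together by time and replicate block with glmQLFit and glmQLFTest. Benjamini-Hochberg adjustment took in all 18858 tested genes, and 0.05 was the threshold. Standard errors were derived from the F statistic. The block was used because each title holds a letter (B, C or D, numbered 1, 2 and 3 here) that recurs once at each time point, and libraries with the same letter deviated together. The labels do not say what they share. The biological coefficient of variation was 0.0627 with the block and 0.277 without it. No libraries were copies of one another (chi-square per degree of freedom at least 13.8). The fits were tested on simulated data.

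The members and the lists of other genes were chosen with earlier results of these data known, and no list was tested as a set. The named genes were all members, with values in every library for those past the threshold at 1 h or 6 h against 0 h and for the defining genes of vesicle release. They also took in Rest and up to 5 genes with the largest change past the threshold per list and comparison. Syt11, Gad1, single cell type markers and the per-library values of Rbfox3, Rph3a, Grin1 and Grin2a were added after their values had been seen. Alternatives were other scalings, filters, thresholds and tools, fits without the block, of only the 6 libraries compared, with trends in GC content and length removed, and with each library or each replicate (letter) left out. Splicing and intron retention were not analysed here, and some genes of the lists are counted but not reported here by name.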

Additional observations from a re-analysis of the deposited data

How the results depend on the processing

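The replicate block decided most calls. The fit without it called 0 members higher and 0 lower at 6 h, against 0 h and against 1 h, and 8, 456 and 404 of all genes at 1 h against 0 h, 6 h against 0 h and 6 h against 1 h (661, 6581 and 6710 with the block). It called 1 and 0 further presynaptic genes and 2 and 2 postsynaptic genes at 6 h against 0 h and against 1 h. DESeq2 with no replicate block called 89, 1697 and 1624 of all genes, 2 and 1 members higher and 0 lower at 6 h, 6 and 5 further presynaptic genes, and 3 and 4 postsynaptic genes. With the block, scaling by library totals or by RLE factors kept all 20 member calls at 6 h against 0 h.

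Without a filter on low counts, the calls at 1 h were 1369 of all genes, 1 member (higher), 2 further presynaptic genes and 1 postsynaptic gene. An adjusted p under 0.01 gave 240, 4270 and 4246 of all genes, 9 members higher, 19 further presynaptic and 8 postsynaptic genes at 6 h against 0 h, and 7 postsynaptic genes against 1 h. A minimum size of 0.5 on the log2 scale gave 184, 2014 and 2015 of all genes, 5 members higher and 1 lower against 0 h, and 6 and 1 against 1 h. It left 11 further presynaptic and 4 postsynaptic genes in each. With scaling by library totals, and with trends in GC content and length removed, 1 further presynaptic gene was called at 1 h. With the trends removed the members' median log2 fold change was 0.074 at 6 h against 0 h and 0.060 against 1 h, and 4 of the 20 member calls against 0 h were lost. Of the tested members, the mean filter of 1 CPM removed Sncb, which had been called, and Syt2, Syt5 and Gad2, which had not.

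Leaving out 1 library gave 213 to 886, 4350 to 8051 and 5148 to 6657 genes in the 3 comparisons. The members called at 6 h against 0 h were 9 to 17 higher and 3 to 5 lower, with 9 without replicate 2 at 0 h, 10 without replicate 1 at 0 h or replicate 2 at 6 h, and a median of 0.11 to 0.19. Against 1 h they were 10 to 12 higher and 3 to 4 lower, with a median of 0.11 to 0.15. Further presynaptic calls were 20 to 30 and 22 to 27, and postsynaptic calls 0 to 1, 9 to 17 and 7 to 11. Leaving out all libraries of a replicate gave 184 to 478, 3656 to 6762 and 4132 to 6425 genes, 9 to 16 members higher and 3 to 4 lower against 0 h (median 0.12 to 0.21), and 10 to 12 and 2 to 4 against 1 h (median 0.10 to 0.13). Further presynaptic calls were then 19 to 28 and 20 to 25, and postsynaptic calls 8 to 15 and 6 to 10. The causes were not tested.

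Leaving out 1 library turned the sign of 14, 8 and 6 members at 1 h against 0 h, 6 h against 0 h and 6 h against 1 h, and 0 of these were called. Ranges are given here for some of them, the genes Syn1, Vamp2, Stx1a and Syp. At 1 h Syn1 was 0.0014 in DESeq2 with no replicate block. Leaving out a library or a replicate gave -0.143 to 0.036 for Syn1, -0.032 to 0.011 for Vamp2 and -0.129 to 0.0038 for Stx1a at 1 h, and for Syp -0.042 to 0.115 at 6 h against 0 h and -0.153 to 0.056 against 1 h. Few counts limit Syt4, Syt5, Gad2 and Sncb.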

Other observations

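The postsynaptic side was read in the same fit from a list of 30 genes, of which 28 were tested and 2 were too low. At 1 h against 0 h 0 were called in edgeR, beside 3.51% of all tested genes, and DESeq2 with the block called 0. In edgeR 3 had an unadjusted p under 0.05, beside 18.2% of all tested genes. At 6 h 5 rose and 8 fell, beside 34.9% of all tested genes, and the median log2 fold change was 0.01. Without the replicate block 2 were called, beside 2.42% of all tested genes. Grin1, the obligatory subunit of NMDA receptors, had 1.38, 0.676 and 0.945 CPM at 0 h, 1.89, 1.01 and 1.07 CPM at 1 h, and 2.73, 1.43 and 1.43 CPM at 6 h, and every value at 6 h was above the highest at 0 h (log2FC 0.88 ± 0.15, edgeR adjusted p = 0.000655). Grin2a, another subunit of the same receptor, had 3.07, 3.53 and 0.4296 CPM at 0 h, 3.31, 3.56 and 0.417 CPM at 1 h, and 1.03, 1.47 and 0.149 CPM at 6 h, and fell in each replicate (log2FC -1.41 ± 0.15, edgeR adjusted p = 1.66e-05). Camk2a, a kinase of the postsynaptic density, also fell (log2FC -0.78 ± 0.083, edgeR adjusted p = 1.66e-05), with replicate 3 far below the others at each time, and Dlg3, a scaffold of receptors, rose (log2FC 0.60 ± 0.066, edgeR adjusted p = 2.08e-05). Gria1, an AMPA receptor subunit, fell in edgeR (log2FC -0.50 ± 0.16, edgeR adjusted p = 0.0276) and was not called by DESeq2 with the block (DESeq2 adjusted p = 0.0692). Subunits of one receptor had changes of opposite sign, as the synaptotagmin genes Syt1 and Syt4 did among the presynaptic genes. Changes of the 2 lists were not compared by a test.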
